A study of Mus musculus with 3 samples.

Results

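The 10 genes described here are Ifit1, Ifit2, Ifit3, Isg15, Rsad2, Usp18, Oasl2, Xaf1, Bst2 and Rtp4, classical targets of type I interferon. They were chosen by name, with earlier results of these data known, and found by symbol among the 32285 features of the count matrices. They were followed in mouse colon organoids, cultures grown from the crypts of wild-type mice that hold epithelial cells without stroma or immune cells. All organoids were kept in full medium, which favours stem and progenitor cells, and were either untreated or treated with IFN-γ for 24 h or 48 h before live cells were sorted and sequenced by droplet sc-RNAseq. Each of the 3 conditions had 1 library, so no test between conditions could be made, and every interval given is a 95% interval for counting error only.

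A barcode was taken as a cell by the limits of the study's methods: 5000 or more unique molecular identifiers (UMIs), 400 or more genes, and no more than 15% of UMIs from mitochondrial genes. The untreated library then had 1058 cells, the 24 h library 917 and the 48 h library 2934, with a median of 33550, 68784 and 10772 UMIs per cell. Levels are counts summed over these cells and scaled to counts per 1000000 (CPM). The summed level of 7 epithelial markers, such as Epcam and Krt8, was 6975 CPM untreated, 4909 CPM at 24 h and 4424 CPM at 48 h. The 12 immune markers together had 47, 20 and 19 UMIs, with 7, 6 and 8 of them at 0, and the 9 stromal and endothelial markers had 125, 63 and 82 UMIs. Between libraries, 1 to 4 cell barcodes were shared.

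Type I and type III interferons act through the factor ISGF3, which contains STAT2 and IRF9 and binds the interferon-stimulated response element (ISRE) in the promoters of antiviral genes. IFN-γ acts mainly through a different element, the gamma-activated site (GAS), found at genes such as Irf1 and the guanylate-binding proteins. The genes described here are usually read as the ISGF3 arm, and the comparison asked which of them were higher in epithelial cells given IFN-γ and which were not.

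RefSeq promoter windows (GRCm38.p6, 250 bases before to 50 bases after the start) were at hand for 8 of the 10 genes, all but Usp18 and Rtp4. The ISRE core was searched on both strands as GAAA, any 2 bases and GAAA again, and it lay in the windows of Ifit1, Ifit3, Isg15, Rsad2 and Bst2, 5 of 8 genes, against 3.44% of all 32851 windows. The 160 bases before the start are shown for these 5 genes and for Oasl2, the gene with the highest ratio to untreated, whose window held no match, with the ISRE core in capitals. They are chr19:34640729-34640888 (plus strand) for Ifit1, chr19:34583369-34583528 (plus) for Ifit3, chr4:156200819-156200978 (minus) for Isg15, chr12:26456453-26456612 (minus) for Rsad2, chr8:71537473-71537632 (minus) for Bst2 and chr5:114896774-114896933 (plus) for Oasl2. Each is written 5′ to 3′ on the gene's strand.
Ifit1: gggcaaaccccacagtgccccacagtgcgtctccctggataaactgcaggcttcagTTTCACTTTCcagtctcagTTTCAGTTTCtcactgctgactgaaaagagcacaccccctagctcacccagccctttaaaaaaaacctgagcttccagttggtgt
Ifit3: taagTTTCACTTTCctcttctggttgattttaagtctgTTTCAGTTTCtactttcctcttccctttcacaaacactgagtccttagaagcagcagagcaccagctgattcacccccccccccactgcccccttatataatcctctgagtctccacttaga
Isg15: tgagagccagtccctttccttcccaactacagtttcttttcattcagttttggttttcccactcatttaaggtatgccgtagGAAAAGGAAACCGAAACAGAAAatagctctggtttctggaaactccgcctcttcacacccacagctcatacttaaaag
Rsad2: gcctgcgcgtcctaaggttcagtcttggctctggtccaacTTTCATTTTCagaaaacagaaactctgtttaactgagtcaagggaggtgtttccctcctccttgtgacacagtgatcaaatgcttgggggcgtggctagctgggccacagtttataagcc
Bst2: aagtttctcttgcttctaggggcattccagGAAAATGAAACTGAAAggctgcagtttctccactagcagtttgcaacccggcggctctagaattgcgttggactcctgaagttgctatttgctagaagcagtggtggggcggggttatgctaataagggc
Oasl2: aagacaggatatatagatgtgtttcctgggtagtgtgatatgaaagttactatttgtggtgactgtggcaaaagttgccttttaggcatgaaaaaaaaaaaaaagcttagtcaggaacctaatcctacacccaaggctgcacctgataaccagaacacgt
Ifit1 and Ifit3 each held 2 separate cores, read as TTTC, 2 bases and TTTC on the gene's strand, at -104 and -85 and at -156 and -122 from the start. The capitals of Isg15 are 3 overlapping cores that begin at -78, -72 and -66, those of Bst2 are 2 overlapping cores that begin at -130 and -124, and Rsad2 held 1 core at -120. The GAS letters TTCNNNGAA, which read the same on both strands, lay in 8.30% of all windows and in 2 of the 8, at -241 in Ifit2 and at -136 in Bst2, where they overlap the first ISRE core. The windows of Ifit2, Oasl2 and Xaf1 held no ISRE core, which says only that these letters are not in this stretch. A match is a description of sequence and no measurement of binding.

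Of the 10 genes, 8 were at least 2-fold higher than untreated at 24 h, where 3.46% of the 17412 genes whose counts in the compared libraries summed to 10 or more were. At 48 h the same count was 8 of 10 against 5.26% of 17376 genes. The median log2 ratio of the 10 genes was 3.06 at 24 h and 3.12 at 48 h, where the median over all genes was -0.46 and -0.18. Ifit1 and Ifit3 were the 2 genes that did not pass 2-fold in the pooled cells at either time. TMM scaling, which centres the bulk of genes, moved every log2 ratio to untreated up by 0.45 at 24 h and by 0.19 at 48 h, and left both counts at 8.

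**Figure D1:**
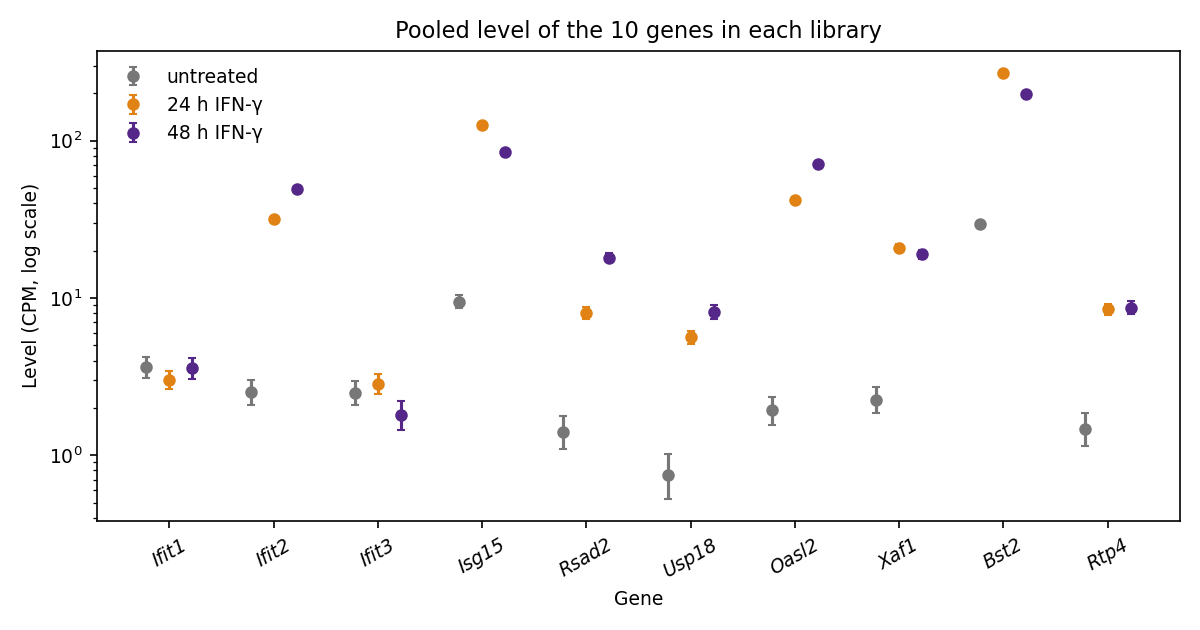
Pooled level of each gene in CPM on a log scale, for the untreated, 24 h and 48 h libraries, with exact 95% Poisson intervals for counting error. For 8 genes both treated points lie far above the untreated point, whereas the 3 points of Ifit1 lie between 3.01 and 3.61 CPM and those of Ifit3 between 1.80 and 2.84 CPM.

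The Ifit genes encode tetratricopeptide-repeat proteins that bind viral RNA or hinder its translation, and 6 of them lie within 0.0993 Mb of chromosome 19 (GRCm38). Ifit2 stood at 2.51 CPM untreated, 31.9 CPM at 24 h and 49.4 CPM at 48 h. Its log2 ratio to untreated was 3.67 (3.41 to 3.94) at 24 h and 4.30 (4.04 to 4.57) at 48 h. Ifit1, at the other end of this cluster, stood at 3.61, 3.01 and 3.58 CPM. With all cells its log2 ratio was -0.26 (-0.56 to 0.03) at 24 h and -0.01 (-0.33 to 0.30) at 48 h. TMM scaling turned both to positive values of 0.18 and 0.17. Ifit3 stood at 2.49, 2.84 and 1.80 CPM, with log2 ratios of 0.19 (-0.14 to 0.53) and -0.47 (-0.88 to -0.06). However, 4 untreated cells held 91.7% of the untreated Ifit1 UMIs and 96.8% of those of Ifit3. Without them the untreated Ifit1 level was 0.302 CPM. The log2 ratios were then 3.32 and 3.56 for Ifit1 and 5.14 and 4.48 for Ifit3. The 4 cells were picked by high values of the genes described here and left out of the untreated library only. The rise of both ratios was thus fixed by the choice of cells and tests nothing. Ifit3 counts carry some uncertainty, because 14.9% of the 50-base words in its last 500 bases also occur in its near copy Ifit3b.

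Isg15 encodes a ubiquitin-like protein that is attached to other proteins, and Usp18 encodes the protease that takes it off and that also damps signalling at the type I receptor. Isg15 stood at 9.48, 125 and 85.0 CPM in the untreated, 24 h and 48 h libraries, a log2 ratio to untreated of 3.72 (3.59 to 3.86) and then 3.16 (3.03 to 3.30). Usp18, with 37, 400 and 387 UMIs, stood at 0.743, 5.63 and 8.19 CPM, a log2 ratio of 2.92 (2.43 to 3.45) and then 3.46 (2.97 to 3.99). The treated libraries were thus above untreated for both genes, with Isg15 higher at 24 h and Usp18 higher at 48 h.

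Rsad2 encodes viperin, a radical-SAM enzyme that makes a chain-terminating nucleotide, and Oasl2 encodes a relative of the oligoadenylate synthetases. Rsad2 stood at 1.41, 8.02 and 18.0 CPM in the untreated, 24 h and 48 h libraries, with log2 ratios to untreated of 2.51 (2.15 to 2.89) and 3.68 (3.33 to 4.05). Oasl2 stood at 1.93, 42.2 and 71.2 CPM, with log2 ratios of 4.45 (4.16 to 4.76) and 5.21 (4.91 to 5.51), the highest of the 10 at both times. By rank among all genes with at least 10 counts, the ratio of Oasl2 was number 83 at 24 h and number 79 at 48 h.

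Bst2 encodes tetherin, a membrane protein that holds budding virions at the cell surface, Xaf1 a partner of the apoptosis inhibitor XIAP, and Rtp4 a chaperone of receptor transport. Bst2 stood at 29.4, 269 and 198 CPM, with log2 ratios of 3.20 (3.12 to 3.27) at 24 h and 2.76 (2.68 to 2.84) at 48 h. Xaf1 stood at 2.25, 20.8 and 18.9 CPM, with log2 ratios of 3.21 (2.93 to 3.50) and 3.07 (2.79 to 3.37). Rtp4 stood at 1.47, 8.46 and 8.68 CPM, with log2 ratios of 2.53 (2.18 to 2.90) and 2.57 (2.20 to 2.95). For all 3 genes both treated levels lay well above the untreated interval.

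Between the treated libraries the log2 ratios of 48 h over 24 h ran from -0.66 to 1.17. Their median was 0.14, where the median over all genes was 0.26. At least 2-fold higher was 1 of 10 genes, near the 11.6% of all 16814 genes. That gene was Rsad2, at 1.17 (1.01 to 1.32). Oasl2 (0.75), Ifit2 (0.63) and Usp18 (0.54) were also higher at 48 h, and Ifit3 (-0.66), Isg15 (-0.56), Bst2 (-0.44) and Xaf1 (-0.13) were lower, each with a counting interval that left out 0. Without the 1 cell per library with most Xaf1 UMIs, Xaf1 was at -0.12 (-0.24 to 0.003), which included 0. Without the 1% of cells with the highest share of Xaf1 among their UMIs, it was at -0.16 (-0.28 to -0.03). The values of Ifit1 (0.25) and Rtp4 (0.04) had intervals that included 0. Under TMM scaling all of these fell by 0.26, which took Rsad2 below 2-fold and turned the signs of Ifit1 and Rtp4. The intervals take UMIs as independent and are too narrow where UMIs lie together, as for Ifit3 at 24 h, with 40 of 202 in 1 cell. The 2 treated libraries also differed in depth per cell, whose part in these differences was not tested.

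In the untreated library the UMIs were spread unevenly over cells. The 180 untreated Ifit1 UMIs lay in 13 of 1058 cells, and 118 of them in 1 cell. The 124 untreated Ifit3 UMIs lay in 8 cells, with 72 in that same cell. At 24 h, 214 Ifit1 UMIs were spread over 89 of 917 cells with at most 21 in a cell, and at 48 h, 169 were spread over 104 of 2934 cells with at most 15. Untreated Isg15 was uneven too, with 185 of 472 UMIs in 1 cell, whereas the untreated cell with most Xaf1 held 7 of 112 UMIs. The 10 untreated cells with most UMIs of a gene, 1% of the cells, held 98.3% of Ifit1, 100% of Ifit3 and Usp18, 85.0% of Isg15, 84.3% of Rsad2 and 68.8% of Oasl2, but 36.0% of Ifit2 and 30.4% of Xaf1. The 100% was fixed in advance, since untreated Ifit3 and Usp18 UMIs lay in only 8 and 10 cells. In the treated libraries the top 1% held 14.7% and 13.5% of Isg15, and 7.83% and 9.90% of Oasl2. It still held 37.9% and 55.6% of Ifit1, 56.9% and 70.6% of Ifit3, and 31.9% and 26.6% of Rsad2. Treated Ifit3 UMIs lay in only 73 and 54 cells.

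**Figure D2:**
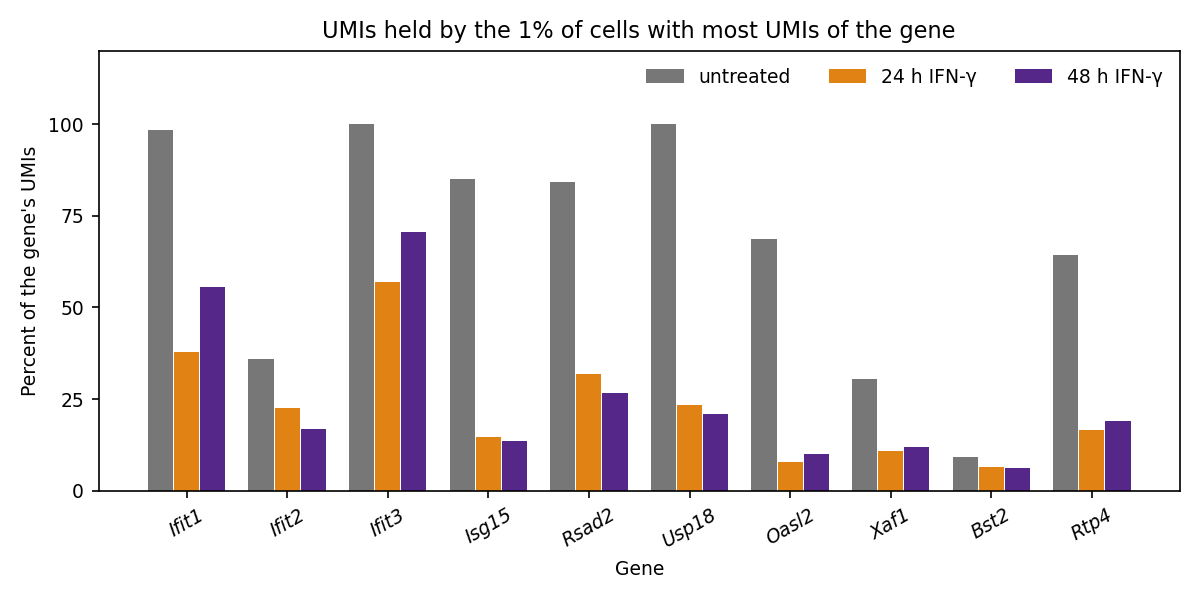
Percent of each gene's UMIs that lay in the 1% of cells with most UMIs of that gene, as bars for the untreated, 24 h and 48 h libraries. The untreated bar is the highest for each of the 10 genes, and reaches 100% for Ifit3 and Usp18, which had UMIs in only 8 and 10 untreated cells.

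The highest untreated cells carried the 10 genes together. Ranked by summed CPM of the 10 genes, the first 4 untreated cells stood at 17178, 3642, 3004 and 1486 CPM, and the next 2 at 966 and 798 CPM. These 4 cells had UMIs of 9, 9, 10 and 10 of the 10 genes. The first had 25789 UMIs in all, among them 118 of Ifit1, 72 of Ifit3, 185 of Isg15, 33 of Rsad2 and 11 of Usp18, together with 342 of the Ifit1 relative Ifit1bl1. The 4 cells held 844 of the library's 2752 UMIs of the 10 genes, 30.7%, on 0.390% of its UMIs. They held 91.7% of Ifit1, 96.8% of Ifit3, 69.7% of Isg15, 70.3% of Usp18, 65.7% of Rsad2, 52.1% of Oasl2 and 38.4% of Rtp4. Their share was 20.8% of Ifit2, 14.3% of Xaf1 and 2.60% of Bst2. The cells were picked by these values, so the numbers describe them and test nothing.

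Other genes in these 4 cells were read for their identity. They had 268, 439, 520 and 392 UMIs of the epithelial markers and 0 of the immune, stromal and interferon ligand lists, and their barcodes were not among the filtered cells of the other libraries. The first 3 were rich in colonocyte genes such as Krt20 and Slc26a3, with 39746, 20481 and 14768 CPM over 7 such genes, which were places 9, 21 and 37 among 1058 cells with a median of 514 CPM. The fourth had 1061 CPM of these genes and 455 UMIs of mitotic genes. The 12 genes listed as direct IFN-γ targets summed to 969, 246, 63.5 and 118 CPM in them, on 25, 9, 3 and 10 UMIs, against 78.4 CPM in the whole untreated library and 3406 CPM at 24 h. Gbp2, a guanylate-binding protein, had 1 UMI in the first cell and 0 in the other 3. Iigp1, an immunity-related GTPase, and Cxcl9, a T-cell chemokine, had 0 in all 4. The whole untreated library had only 2 UMIs of Gbp2, 1 of Iigp1 and 3 of Cxcl9, so a 0 in these cells says little. Irf1 had 4, 1, 0 and 1 UMIs in the 4 cells. The treated cell that ranked first at 24 h, with 109 UMIs of Ifit2 and 131 of Isg15, had 62 of Gbp2, 12 of Iigp1 and 79 of Cxcl9.

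The ratios were therefore given again without the highest cells, a choice made after seeing the values. When the 1 cell with most UMIs of the gene was left out of each library, the log2 ratio of Ifit1 was 1.13 (0.71 to 1.56) at 24 h and 1.39 (0.95 to 1.84) at 48 h. Ifit3 was then at 1.13 (0.67 to 1.61) and 0.60 (0.08 to 1.14). Next, the highest 1% of cells, by the gene's share of the cell's UMIs, was left out of each library instead. Ifit1 was then at 5.04 (3.46 to 7.34) and 4.90 (3.31 to 7.21), on 3 remaining untreated UMIs. No untreated Ifit3 UMI remained, and against a floor of 3 counts in that library its log2 ratio was at least 4.49 at 24 h and at least 3.19 at 48 h. Isg15 moved to 6.21 and 5.66, while Bst2, at 3.24 and 2.79, hardly moved. With only the 4 untreated cells left out and the treated libraries whole, all 10 genes were at least 2-fold higher at both times. With all cells, 3.46% and 5.26% of all genes were. The medians of the 10 genes were then 4.02 and 4.56, with Ifit1 at 3.32 and 3.56 and Ifit3 at 5.14 and 4.48. Usp18 moved to 4.67 and 5.21, Rsad2 to 4.05 and 5.22, Oasl2 to 5.51 and 6.26, and Rtp4 to 3.22 and 3.26. All 3 ways take away UMIs of the very genes compared, most of all where these sit in few cells. The 4 cells were picked by these genes and left out of the untreated library only, so the values without them test nothing.

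**Figure D3:**
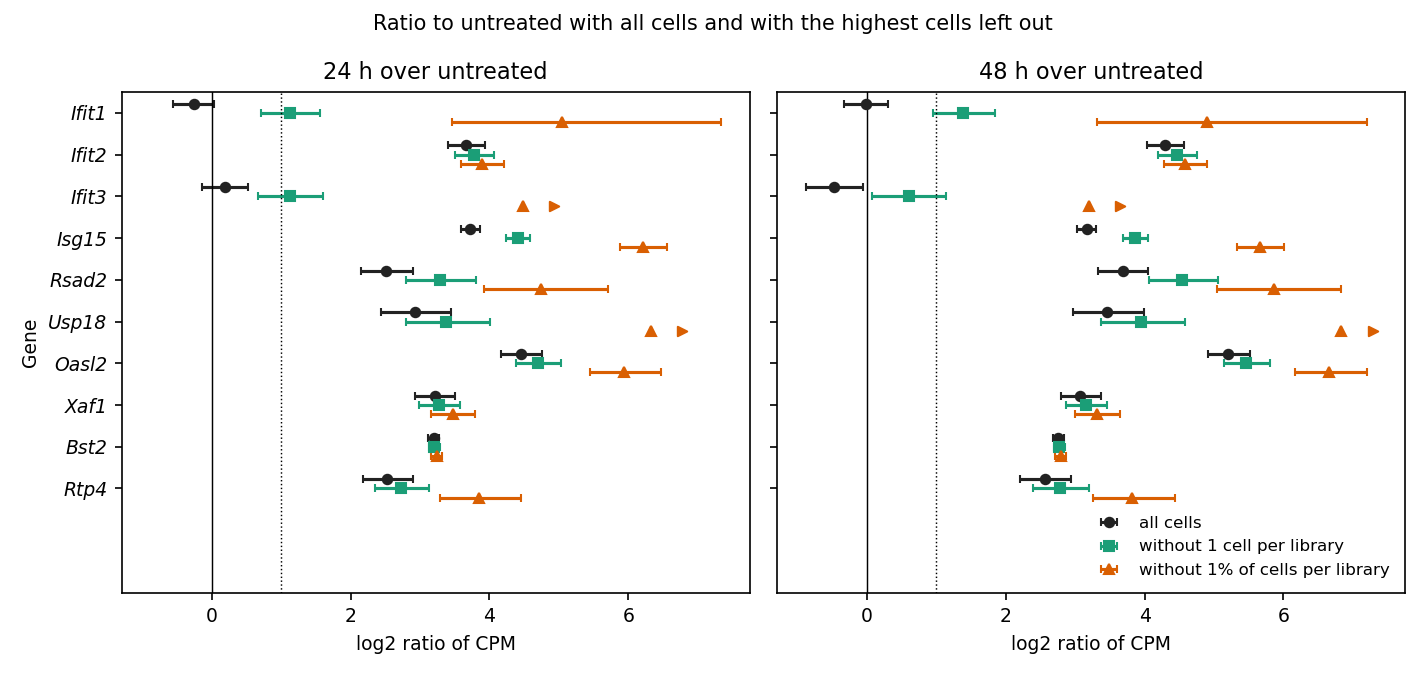
Log2 ratio of each gene to untreated at 24 h and at 48 h with all cells (circles) and without the 1 cell per library with most UMIs of the gene (squares). Triangles leave out the 1% of cells per library in which the gene has the highest share of the cell's UMIs. Bars are 95% intervals for counting error. The solid line marks no difference and the dotted line 2-fold, and a second arrowhead marks a lower bound. Ifit1 goes from -0.26 to 1.13 and 5.04 at 24 h, while Bst2 stays near 3.20.

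Barcodes below 2000 UMIs, which hold free RNA, debris and shallow cells and were not used for the levels, gave a second reading. In them Ifit1 stood at 0.275 CPM untreated (8 UMIs), 1.97 CPM at 24 h (42 UMIs) and 2.78 CPM at 48 h (71 UMIs), log2 ratios of 2.84 (1.73 to 4.14) and 3.34 (2.28 to 4.60). Ifit3 stood at 0.172, 1.73 and 1.49 CPM on 5, 37 and 38 UMIs, log2 ratios of 3.33 (1.98 to 5.04) and 3.11 (1.77 to 4.82). All 10 genes were at least 2-fold higher in these barcodes at both times, where 3.64% and 3.51% of all genes were, with medians of 4.03 and 4.23. The untreated level of Ifit1 in all filtered cells, 3.61 CPM, was thus far above that in the low barcodes. Without the 4 untreated cells it was 0.302 CPM, near the 0.275 CPM of the low barcodes. Bst2, at 42.3, 299 and 267 CPM, was somewhat higher in the low barcodes of each library than in its filtered cells. In both treated libraries so were Isg15, at 140 and 116 CPM, and Xaf1, at 25.6 and 21.1 CPM. Rtp4 was higher in the low barcodes at 48 h only, at 10.5 CPM. Ifit1, Ifit2, Ifit3, Rsad2, Usp18 and Oasl2 were lower in them than in the filtered cells at both times. Since free RNA of these genes was present in every library, a UMI in a cell is not by itself expression.

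To compare how many cells showed a gene, each cell was first thinned at random to 5000 UMIs, since depth differed between libraries, and no filtered cell was too shallow for this. Bst2 was then found in 9.64%, 64.2% and 57.2% of the untreated, 24 h and 48 h cells. Isg15 was found in 1.32%, 32.7% and 27.8% of cells, and Oasl2 in 0.945%, 19.3% and 28.3%. These genes were thus found in many more treated than untreated cells, as were Ifit2 (1.51%, 12.8% and 17.5%) and Xaf1 (1.51%, 10.5% and 8.86%). Rsad2 (0.851%, 4.69% and 8.25%), Usp18 (0.378%, 2.40% and 4.36%) and Rtp4 (0.662%, 3.60% and 4.26%) were found in fewer cells but in the same order against untreated. Ifit1 was found in 0.945% (0.454 to 1.73), 1.53% (0.837 to 2.55) and 1.26% (0.889 to 1.73) of cells, whose exact intervals overlap, and Ifit3 in 0.567% (0.208 to 1.23), 1.53% (0.837 to 2.55) and 0.818% (0.525 to 1.21), likewise. At full depth Ifit1 was found in 1.23% (0.656 to 2.09), 9.71% (7.87 to 11.8) and 3.54% (2.91 to 4.28) of cells. Its untreated interval then lay below both treated ones. Ifit3 was found in 0.756% (0.327 to 1.48), 7.96% (6.29 to 9.91) and 1.84% (1.39 to 2.39). Its untreated interval lay below that at 24 h and overlapped that at 48 h. Median depth at this setting was 33550, 68784 and 10772 UMIs per cell, so these shares are not matched for depth. All these intervals are over cells of 1 library, so they call no difference between conditions. No class of organoid cell is known to lack these genes, so the low barcodes stand in for the background of free RNA.

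Most untreated cells showed none of the 10 genes at this depth and most treated cells showed at least 1. None of the 10 was found in 85.2%, 15.6% and 17.2% of the untreated, 24 h and 48 h cells. Bst2 alone was found in 9.64%, 64.2% and 57.2% of them. At least 3 genes were found in 0.756%, 16.1% and 18.9% of cells, and the mean was 0.183, 1.53 and 1.59 genes per cell. At full depth the share with at least 1 UMI of the 10 was 57.4%, 98.4% and 94.1%. The correlation of log2(UMIs + 1) between pairs of these genes over the thinned cells of a library, a description over cells of 1 library, had a median r over 45 pairs of 0.215, 0.108 and 0.0599 in the untreated, 24 h and 48 h libraries. The highest untreated pair was Ifit1 and Isg15 at r = 0.823, and the highest pair at both treated times was Ifit2 and Isg15, at 0.300 and 0.177. The untreated values rest on the 4 cells, since without them the median r was -0.00437 and Ifit1 with Isg15 was at 0.156.

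**Figure D4:**
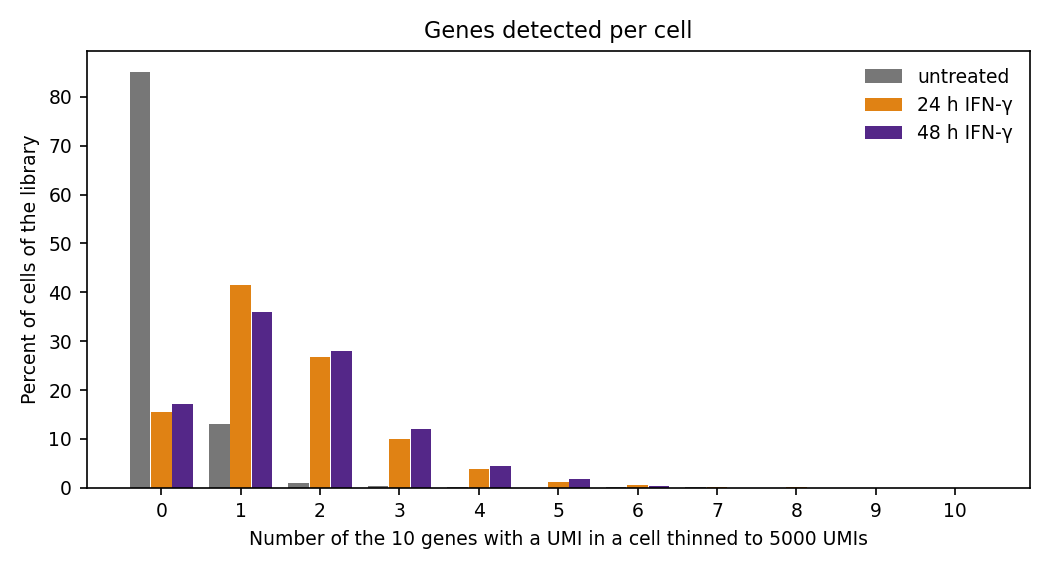
Percent of cells in each library, as bars, by the number of the 10 genes with a UMI after thinning to 5000 UMIs per cell. The untreated cells pile up at 0 genes (85.2%), and the treated cells centre on 1 gene with a tail up to 8.

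Cells were then grouped into overlapping gates, with no clustering, by at least 3 UMIs over a marker list after thinning to 5000 UMIs per cell. Levels were taken from their full counts. Gates share cells, and the mitotic gate alone held 68.3%, 84.1% and 84.4% of the untreated, 24 h and 48 h cells. The markers differed between libraries too. All 7 goblet genes and 5 of 7 colonocyte genes were at least 2-fold lower at both times, against 26% and 16.6% of all genes. A gate thus need not hold the same class of cell in each library. The summed level of the 10 genes in cells with goblet markers such as Muc2 was 40.7 CPM untreated, 489 CPM at 24 h and 501 CPM at 48 h, over 185, 90 and 336 cells. In cells with stem markers such as Lgr5 it was 35.4, 505 and 455 CPM, and in cells with mitotic markers such as Mki67 it was 43.2, 489 and 431 CPM. In cells with S-phase markers such as Pcna it was 45.7, 489 and 421 CPM. The summed level was thus higher in the treated libraries within each of these gates, at 421 to 505 CPM. Bst2 was the largest part of each sum, for example 31.4, 296 and 209 CPM in the goblet gate. The enteroendocrine gate, with markers such as Chga, held only 20, 12 and 16 cells and stood at 17.6, 945 and 897 CPM. Cells with colonocyte markers such as Krt20 had an untreated sum of 70.8 CPM against 553 and 511 CPM in the treated libraries. All 4 of the untreated cells described above were in this gate, and without them its untreated sum was 40.5 CPM. This was near that of the mitotic gate (39.7 CPM) and the S-phase gate (41.0 CPM) without the same cells. Bst2 alone made up 29.0, 30.1 and 30.4 CPM of these sums.

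The colonocyte gate was where the untreated Ifit1 and Ifit3 UMIs lay, with 177 of 180 and 123 of 124. In this gate Ifit1 stood at 6.41 CPM untreated, 3.61 CPM at 24 h and 4.63 CPM at 48 h, log2 ratios of -0.83 (-1.15 to -0.51) and -0.47 (-0.83 to -0.11). Without the 4 cells, 12 untreated Ifit1 UMIs were left in it, and the ratios were 3.04 (2.20 to 4.03) and 3.40 (2.54 to 4.40). In the mitotic gate Ifit1 stood at 0.311, 1.98 and 2.35 CPM, log2 ratios of 2.67 (1.78 to 3.71) and 2.92 (2.01 to 3.97). Ifit3 in the colonocyte gate had log2 ratios of -0.64 (-1.01 to -0.26) and -1.33 (-1.87 to -0.81), and without the 4 cells 4.71 (3.13 to 7.01) and 4.02 (2.37 to 6.36) on 3 untreated UMIs. In the mitotic gate Ifit3 was at 4.28 (2.69 to 6.58) and 3.79 (2.15 to 6.12), on 3 untreated UMIs. With all cells, 8 of 10 genes were at least 2-fold higher in the colonocyte gate at both times. In that gate 3.78% of all genes were at 24 h and 5.76% at 48 h. Without the 4 cells all 10 genes were. These cells were picked for high values of the same genes and left out of the untreated library only, so that count tests nothing. With all cells, all 10 genes were at least 2-fold higher in the mitotic gate (3.45% and 5.46% of all genes), the S-phase gate (3.63% and 5.54%) and the stem gate (3.53% and 4.83%). Ifit3 had 1 untreated UMI in the S-phase gate and 0 in the stem gate. The difference between gates was not tested.

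Genes of ISGF3 itself were higher too. Stat2 had log2 ratios to untreated of 1.99 (1.85 to 2.13) and 2.71 (2.57 to 2.85), and Irf9 of 1.23 (1.06 to 1.40) and 1.40 (1.23 to 1.58). Without the 4 untreated cells Stat2 was at 2.08 and 2.80, so its ratio hardly rested on these cells. Of 9 receptor and kinase genes, 1 was at least 2-fold higher at each time, where 3.46% and 5.26% of all genes were. Another 1 was at least 2-fold lower at each time, where 26% of all genes at 24 h and 16.6% at 48 h were. The first was Ifnar2, a chain of the type I receptor, at 1.14 and 1.34, and the second Ifngr2, a chain of the IFN-γ receptor, at -1.15 and -1.46. Ifnar1, the other type I chain, was at -0.57 and -0.43, and Ifnlr1, of the type III receptor, at -0.82 and 0.14. TMM scaling took Ifngr2 to within 2-fold at 24 h.

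Interferons themselves were barely detected. The 21 interferon genes listed had 28, 14 and 14 UMIs in all, with 19, 17 and 19 of them at 0, which allows up to 0.0602, 0.0422 and 0.0635 CPM for such a gene. Most were of Ifnk, an epithelial type I interferon, with 26, 9 and 13 UMIs. Ifnb1 had 1 UMI at 48 h and 0 in the other libraries, and the type III genes Ifnl2 and Ifnl3 had 2 and 1 at 24 h and 0 elsewhere. Of 9 sensors and adaptors, 2 were at least 2-fold higher at 24 h and 5 at 48 h, where 3.46% and 5.26% of all genes were. Under TMM scaling 5 and 6 were, and the count over all genes at 24 h also rose, from 602 to 1224. Irf7, which drives interferon genes, was at 2.52 and 2.59, and Dhx58, a regulator of RNA sensing, at 1.59 and 1.68, whereas Ifih1, the sensor MDA5, was at 0.67 and 1.06.

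The enzymes that attach Isg15 had unequal ratios. Ube2l6, its conjugating enzyme, had log2 ratios of 4.78 (4.35 to 5.25) and 4.63 (4.19 to 5.10), Uba7, its activating enzyme, 2.03 and 2.85, and Herc6, its main mouse ligase, 2.01 and 2.84. Trim25, a ubiquitin ligase that can also act on Isg15, was at 0.35 and 0.56. Among relatives of the 10 genes, Oasl1 was at 2.74 and 3.42. The 4 untreated cells held 30.3% of its untreated UMIs, and without them it was at 3.25 and 3.94. Ifit1bl1 was at -0.72 and -1.01, with 524 of its 672 untreated UMIs in the 4 cells, and without them at 1.46 and 1.17. Ifit3b, on 16 untreated UMIs of which 14 lay in these cells, was at 1.55 and 1.08, and without them at 4.55 and 4.07 on 2 untreated UMIs. Ifit1bl2 was at -2.57 and -1.57, and its share in the 4 cells was not taken.

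Of 42 further type I targets with enough counts, 27 were at least 2-fold higher at 24 h and 30 at 48 h. Of all genes, 3.46% and 5.26% were. The medians of these targets were 1.82 and 2.14. The highest at 24 h were Sp110, a nuclear body protein (6.93, 4.43 to 12.2, on 1 untreated UMI), Zbp1, a sensor of Z-form nucleic acid (5.71), and Phf11d (5.28), and the lowest were Tdrd7 (-0.74), Oas1c (-0.29) and Pnpt1 (-0.14), of which the last 2 turned positive under TMM scaling. The 12 genes listed as direct IFN-γ targets were all at least 2-fold higher at both times, against the same shares of all genes, with medians of 7.53 and 7.89. Iigp1, Gbp2 and Cxcl9 led them, at 15.77, 13.79 and 12.94 at 24 h, on 1, 2 and 3 untreated UMIs. The 10 genes thus stood between these lists by their median. All of these lists were chosen with earlier results of these data known, so this order tests nothing. Among the 10026 genes whose mean level reached 5 CPM, those nearest to the pair of medians of the 10 genes were Tap2 (2.80 and 3.08), Ifitm3 (2.92 and 3.36), Tapbpl (2.95 and 2.84), B2m (2.76 and 3.07) and Psmb10 (2.92 and 2.77), 4 of them genes of antigen presentation. Without the 4 untreated cells the medians of the 10 genes were 4.02 and 4.56, and the nearest genes were not taken again.

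**Figure D5:**
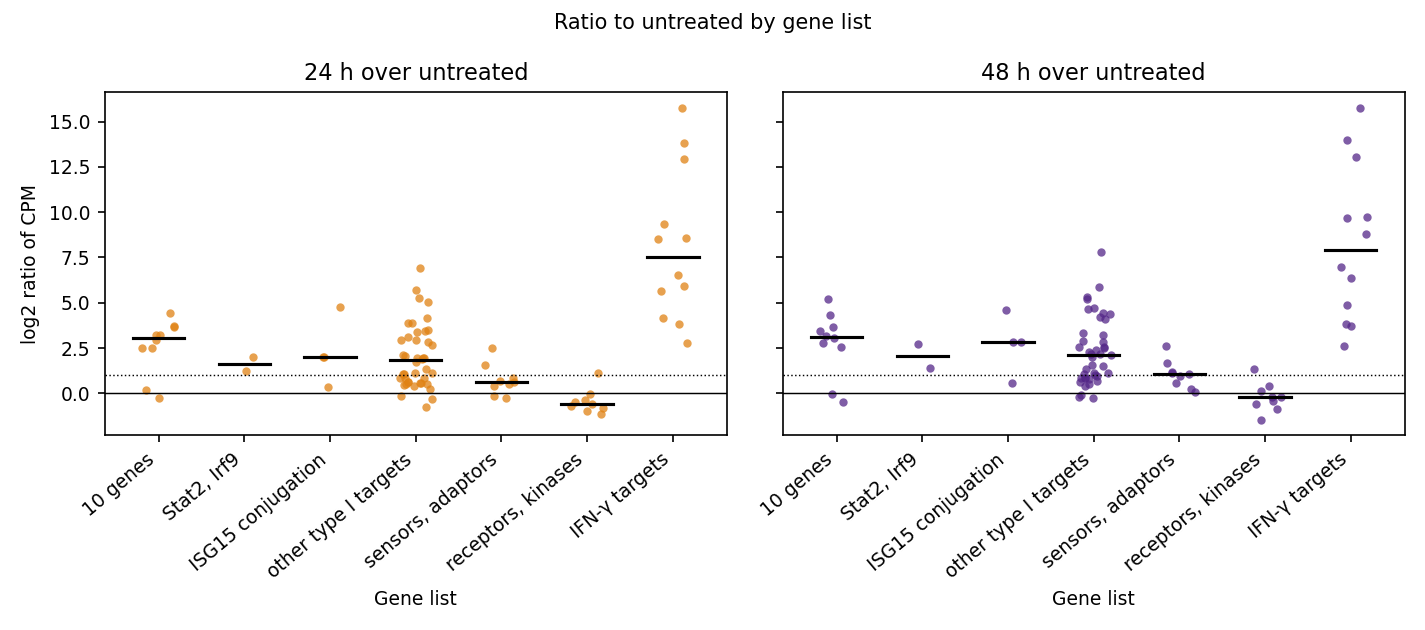
Log2 ratio to untreated at 24 h and at 48 h for each gene with at least 10 counts, by gene list, with the list median as a black bar, the solid line at no difference and the dotted line at 2-fold. The 10 genes have medians of 3.06 and 3.12, the further type I targets 1.82 and 2.14, and the direct IFN-γ targets 7.53 and 7.89. The lists were chosen with earlier results of these data known.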

How the data were processed

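The authors sorted live organoid cells, made 10x Genomics 3' v3 libraries, mapped them to mm10 with Cell Ranger 6.0.1 per the labels, and deposited counts of UMIs per gene and barcode, without normalization and with background barcodes included. The annotation release is not given in the sources used here. From these counts, cells were filtered as in the study's methods and summed per library. Ratios have exact conditional binomial intervals, shares exact Clopper-Pearson intervals and levels exact Poisson intervals, all at 95%. With 1 library per condition no p-value was computed. A gene needed 10 counts over both libraries, and a gene at 0 was set against a floor of 3 counts. Doublets were kept and no caller was run. TMM factors came from edgeR 4.0.16 in R 4.3.3, and all else from Python 3.11.15 with scipy 1.17.1. The ratio, its interval and the 2-fold call were tested on simulated pooled counts. That simulation had no cells, so it does not cover UMIs that lie together in few cells. Gene positions are from GENCODE vM21 and promoters from RefSeq.

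The members and lists were chosen with earlier results of these data known. Genes named are the 10 members, the pathway lists, the 3 highest and 3 lowest further type I targets at 24 h, and the 5 genes nearest to the members' medians. Alternatives were other UMI and mitochondrial limits, leaving out the 6% of cells with most UMIs, the mean over cells, thinned cells, subtraction of 5% free RNA, TMM factors, a 4-fold limit, no count minimum, no thinning and 5 marker UMIs per gate. Those that leave out the highest cells, and TMM for all genes, were added after seeing the data. Oas1b, Mx1 and Mx2 were not analysed here. Results for 1 gene of a pathway list are left out.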

Additional observations from a re-analysis of the deposited data

Results flagged for a closer look

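Ifit3 lay on opposite sides of the untreated library at the 2 times, at 0.19 on the log2 scale after 24 h and -0.47 after 48 h. The difference was not tested, since each time had 1 library, and the untreated level rests on 8 cells. The sides were the same at both times with the mean over cells (-0.28 and -1.14) and in thinned cells (-0.17 and -1.12). They were also the same without the highest cell per library (1.13 and 0.60) and without the 4 untreated cells described above (5.14 and 4.48). Those 4 cells were picked by high values of Ifit3 and the other genes and left out of the untreated library only. The values without them thus test nothing.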

How the results depend on the processing

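The 8 of 10 genes at least 2-fold higher at 24 h and at 48 h stayed at 8 under each other cell filter, scaling and averaging, and under a 4-fold limit, and went to between 9 and 10 when the highest cells were left out. Ifit1 and Ifit3 moved the other way in some settings. In thinned cells Ifit1 was at -1.19 and -1.37 and Ifit3 at -0.17 and -1.12, and with the mean over cells Ifit1 was at -0.72 and -0.83 and Ifit3 at -0.28 and -1.14, against positive values without the highest cells. The median at 24 h moved from 3.06 to 3.51 under TMM factors, to at least 4.61 without the highest 1% of cells and to 4.02 without the 4 untreated cells. The median at 48 h moved from 3.12 to 2.85 without the 6% of cells with most UMIs and to 2.72 in thinned cells. It moved to 3.51 without the highest cell per library, at least 4.74 without the highest 1% and 4.56 without the 4 untreated cells. Both medians without the highest 1% are lower bounds, since no untreated UMI of Ifit3 or Usp18 was left. Between 48 h and 24 h, the median of 0.14 went to -0.12 under TMM factors, and the count of 1 gene at least 2-fold higher went to 0 at a 4-fold limit, with the mean over cells, in thinned cells and under TMM factors. The share of cells with a UMI of the 10 genes moved from 14.8%, 84.4% and 82.8% to 57.4%, 98.4% and 94.1% without thinning. In 10 of 12 combinations of gate and time all genes with enough counts were at least 2-fold higher, also with 5 marker UMIs. Of all genes, 3.45% to 5.76% were in the mitotic, S-phase, stem and colonocyte gates. That share was not taken for the goblet and enteroendocrine gates. The gates share cells, and some ratios rest on 0 or 1 untreated UMIs. In the enteroendocrine gate, with 7 untreated UMIs of the 10 genes, a gene had enough counts mainly through its treated counts. Its outcome in that gate was thus nearly fixed in advance. Ifit3, at 0.59 at 24 h against the floor there, had too few counts to enter. Without the 4 untreated cells 12 of 12 combinations passed, by the same count filter. These 4 cells were picked by the same genes and left out of the untreated library only, so the 12 of 12 is no test. Over all genes, the count at least 2-fold higher went from 602 to 1224 at 24 h and from 1958 to 1070 for 48 h over 24 h under TMM factors, where the scale itself shifts. For other moves the cause was not tested. Leaving out a replicate was not possible, since each condition has 1 library. No paired analysis was possible because each condition has 1 library. The depth of 10772 UMIs per cell at 48 h limits what shares of cells can show for Ifit1, Ifit3 and Usp18, and spread between cultures cannot be measured here.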
